A study of Mus musculus with 28 samples.

Results

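The transporters described here are 8 of the 18193 genes measured, and they encode membrane proteins that carry drugs out of cells. They were chosen by name as drug efflux transporters, among them the pumps for doxorubicin. The genes are Abcb1a and Abcb1b (P-glycoprotein), Abcc1, Abcc3, Abcc4 and Abcc5 (multidrug resistance-associated proteins), Abcg2 (breast cancer resistance protein) and Slc47a1 (the multidrug and toxin extruder MATE1). Each gene is given by its brightest probe set, the group of oligonucleotides on the array that reads 1 transcript, and 20 probe sets read the 8 genes in all.

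The measurements come from lymphomas of C57BL/6 mice that carry the Emu-myc transgene, in which an immunoglobulin enhancer drives the oncogene Myc in B-lineage cells. Cells from lymph nodes of mice with swollen nodes were transduced with Bcl2, an inhibitor of apoptosis, on the retroviral vector MSCVpuro and selected with puromycin, so both groups carry Myc and Bcl2. Irradiated fibroblasts of the mouse line NIH 3T3 served as feeders, and the labels name no sort before the RNA was taken. Each of 14 lymphomas gave 1 untreated culture and 1 culture kept for 5 days in Adriamycin (ADR, doxorubicin) at 0.05 µg/ml, which made 28 arrays. The age of the mice is not used here, and each lymphoma stands for 1 animal's tumour with 1 array per condition. The descriptions mark 11 lymphomas as samples taken over from an earlier series, and the other 3 (5043, 9583 and 9584) carry no such mark; these are called the 11 earlier and the 3 added lymphomas.

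P-glycoprotein, the multidrug resistance-associated proteins and the breast cancer resistance protein are ABC transporters, which use ATP to move substrates across a membrane. P-glycoprotein carries doxorubicin and other bulky lipophilic compounds out of the cell, and in the mouse it is made from a pair of genes where humans have a single one. The multidrug resistance-associated proteins carry anions and conjugates of glutathione or glucuronide, and MATE1 exchanges organic cations for protons. Transcript levels were measured here, and neither protein nor drug transport was.

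After ADR, 6 of the 8 transporter genes were higher, none was lower, and Abcc4 and Slc47a1 did not pass the test. Over all genes 15.3% were called higher, 13.4% lower and 28.7% in either direction, each at an adjusted p under 0.05 in the limma fit with lymphoma as a block. Without the lymphoma as a block 4 of the 8 were higher, and so were 1933 of all 18193 genes, against 2790 with the block. A further fit took the change of a fibroblast marker list as a covariate and gave each gene's change at no change of that list. There none of these 6 calls held, Abcc4 alone was called higher, and 1055 of all genes were higher. Only lymphoma 1467 lay near that point (list change -0.046), and the next lowest, 2949, was at 0.45. The estimate lies at the edge of the data with a wider SE (0.46 against 0.26 for Abcb1b). A lost call there does not tell a smaller rise from lost precision. Abcb1b and Abcc1 had the largest mean rises, 1.84-fold and 1.82-fold. The median change of the 8 genes was 0.41 on the log2 scale, and that of all genes was -0.0011. No transporter separated the groups fully: in each of the 8 genes at least 1 ADR array lay within the range of the untreated arrays. Groups that do not overlap were found for 0.253% of all genes.

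**Figure D1:**
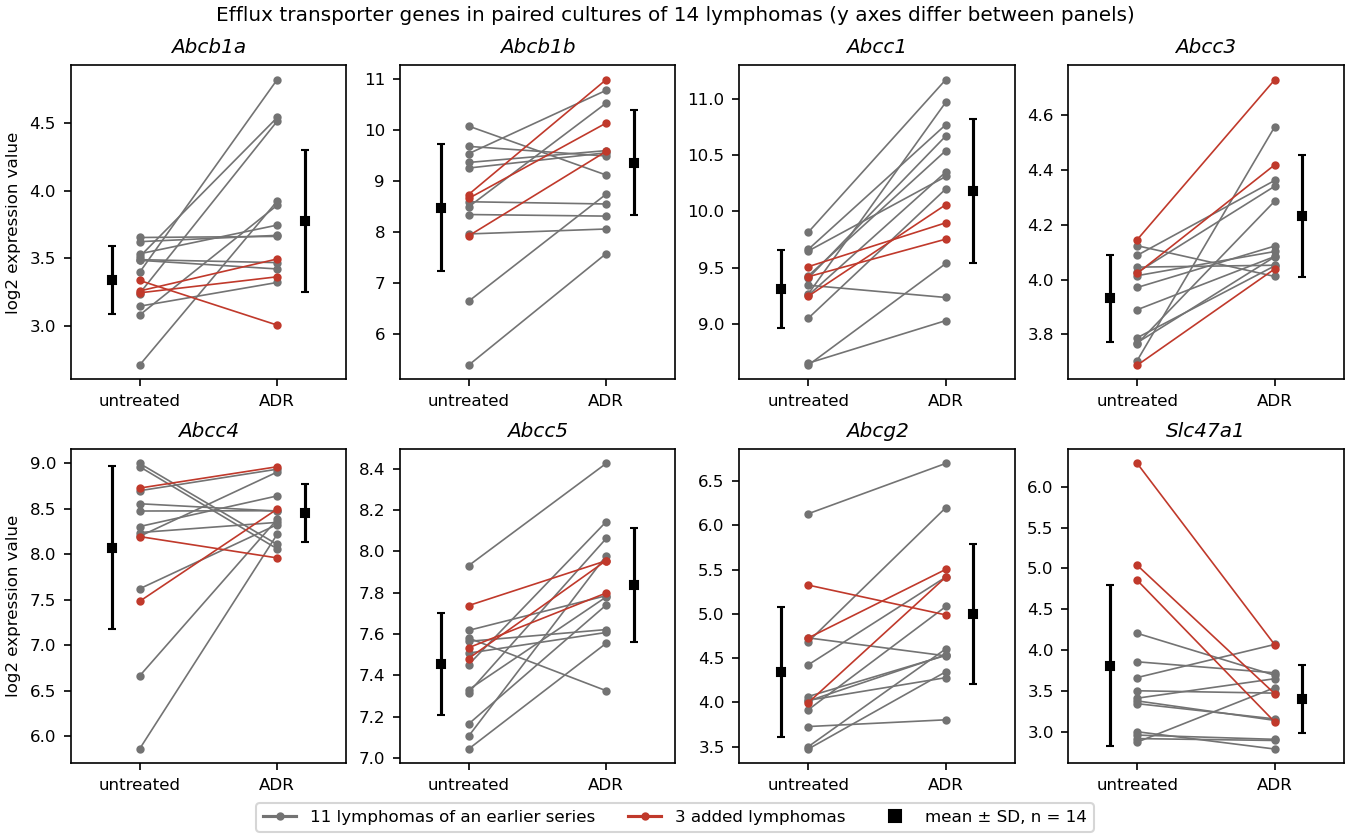
Log2 values of the 8 transporter genes in the 14 untreated and 14 ADR arrays, with a line joining the arrays of each lymphoma and separate colours for the 11 earlier and the 3 added lymphomas; squares with bars are the mean ± SD of 14 arrays. Lines rise in 13 of 14 lymphomas for Abcc1, Abcc3 and Abcc5, spread in both directions for Abcb1b and Abcc4, and fall in the 3 added lymphomas for Slc47a1.

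Marker transcripts of other cell types changed with the treatment, and their values belong beside every change given here. Of 24 fibroblast markers measured, 23 were higher after ADR, with a median change of 1.84, and Pdgfrb alone did not pass. The mean level of that list ran from 5.19 to 5.99 in untreated arrays and from 5.50 to 9.43 in ADR arrays. Of 15 macrophage markers 10 were higher, none was lower, and the list mean ran from 4.90 to 7.99 in untreated and from 5.72 to 8.95 in ADR arrays. Of 12 B cell markers none was higher and 4 were lower, with list means of 7.94 to 9.42 and 7.06 to 9.81. Cd79a and Cd79b, which form the signalling part of the B cell receptor, averaged 10.95 and 11.31 in untreated arrays, while Pax5, Cr2 and Fcer2a averaged 5.59, 4.13 and 4.43. The arrays read all RNA of a culture. A changed share of a cell type and changed expression within any cell type, lymphoma cells included, cannot be told apart. The share that other cells had in the transporter changes was not tested beyond the covariate fit and the relations given here. In the ADR array of lymphoma 1570 the 3' minus 5' signal of Gapdh was 0.92, against 0.38 in the next highest array.

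Abcb1a and Abcb1b lie next to each other on chromosome 5, and both encode P-glycoprotein. Their promoters are shown because the genes are neighbours and their largest changes were in part in different lymphomas. RefSeq's promoter table (GRCm38.p6) matched 5 of the 8 genes, namely Abcb1a, Abcb1b, Abcc4, Abcc5 and Abcg2. The 250 bases before the start of Abcb1a (chr5:8566841-8567090, plus strand) and of Abcb1b (chr5:8797897-8798146, plus strand) read as follows, with matches to the searched motifs in capitals.
Abcb1a: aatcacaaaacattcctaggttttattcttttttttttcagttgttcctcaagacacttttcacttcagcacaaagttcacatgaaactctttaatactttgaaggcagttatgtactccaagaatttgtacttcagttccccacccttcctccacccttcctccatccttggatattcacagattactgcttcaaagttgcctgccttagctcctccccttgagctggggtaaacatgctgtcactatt
Abcb1b: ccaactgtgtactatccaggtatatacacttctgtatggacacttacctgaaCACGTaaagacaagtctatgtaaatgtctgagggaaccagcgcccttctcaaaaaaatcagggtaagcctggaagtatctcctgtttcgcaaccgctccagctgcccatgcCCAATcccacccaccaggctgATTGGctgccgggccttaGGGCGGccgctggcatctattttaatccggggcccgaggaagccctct
The motifs were searched as exact letters on both strands. In the Abcb1b window the CCAAT box, searched as CCAAT, was found at 87 to 83 bases before the start and, on the other strand, at 66 to 62 bases. The GC box, searched as GGGCGG, lay 48 to 43 bases before the start, and the core of the hypoxia element, ACGTG, was found on the other strand at 198 to 194 bases. None of the 7 motifs was found in the Abcb1a window, which was 40.4% G or C against 52.8% for Abcb1b and a median of 52.4% over 32851 RefSeq windows. Of those windows 33.9% held CCAAT, 32.7% held GGGCGG and 16.6% held ACGTG. The motifs with no match in either window were the TATA box (TATAAA, in 12.4% of windows), an AP-1 site (TGAGTCA, 4.46%), the antioxidant element core (TGACNNNGC, 10.2%) and an E-box (CACGTG, which holds ACGTG, 6.02%). A match describes the letters of the window and says nothing of binding.

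Abcb1b (probe set 1418872_at) varied widely between lymphomas, and it was much higher after ADR in some and close to or below its untreated level in others. Its untreated values ran from 5.39 to 10.07 with a median of 8.62, and its ADR values from 7.58 to 10.98 with a median of 9.52. Lymphomas 3594 and 3769 were lowest untreated, at 5.39 and 6.64, and reached 7.58 and 8.74 after ADR. Lymphoma 2949 was highest untreated, at 10.07, and stood at 9.11 after ADR. The ranges overlapped, with 4 of 14 ADR arrays outside the untreated range. Over the 14 lymphomas Abcb1b rose by 0.88 ± 0.26 (SE; limma adjusted p = 0.0186), with 10 of 14 higher and an exact 2-sided sign-flip p of 0.00952.

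The 14 changes of Abcb1b were not spread evenly. In 7 lymphomas (1467, 1570, 3594, 3769, 5043, 9583 and 9584) Abcb1b was 1.24 to 2.25 higher after ADR, and in the other 7 the change lay between -0.95 and 0.30. No change fell in the gap between 0.30 and 1.24. All 3 added lymphomas were in the upper range, with a mean change of 1.79 ± 0.41 (SD, n = 3), against 0.63 ± 1.07 (SD, n = 11) in the earlier ones. That difference of 1.16 ± 0.59 (SE) had a limma p of 0.0669, adjusted over all genes to 0.864. Within the 11 earlier lymphomas alone Abcb1b did not pass the test (0.63 ± 0.29 SE, adjusted p = 0.132). In a fit without the lymphoma as a block it kept its change of 0.88 with an adjusted p of 0.144. A second probe set of Abcb1b (1446701_at) did not pass, at -0.016 ± 0.092 (SE; limma adjusted p = 0.926). It was low on the scale, with an untreated mean of 4.04 against 8.47 for the brightest probe set. At no fibroblast change Abcb1b was at 1.24 ± 0.46 (SE; limma adjusted p = 0.0969).

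Abcb1a (1419759_at) stayed low on the array's scale, and its mean change rested on few lymphomas. Its untreated values ran from 2.71 to 3.65 (median 3.36), and its ADR values from 3.00 to 4.82 (median 3.66), so that the groups overlapped with 8 of 14 ADR arrays outside the untreated range. The mean change was 0.44 ± 0.15 (SE; limma adjusted p = 0.0323), higher in 11 of 14 lymphomas (exact sign-flip p = 0.0153). In lymphomas 403, 5560, 3769, 6054 and 1467 it was higher by 1.43, 1.28, 1.22, 1.03 and 0.81, and no other change exceeded 0.24. Leaving out any 1 of these 5 lymphomas lost the call, with changes of 0.36 to 0.50 and adjusted p-values of up to 0.0704 over the 14 fits that leave out 1 lymphoma each. Lymphomas 403 and 5560, which led Abcb1a, also had the largest rises of the fibroblast list (4.08 and 3.66), and without both the change of Abcb1a was 0.29 ± 0.13 (SE; adjusted p = 0.123). At no fibroblast change Abcb1a was at 0.021 ± 0.23 (SE; limma adjusted p = 0.974). The second Abcb1a probe set (1419758_at) rose by 0.58 ± 0.16 (SE; limma adjusted p = 0.0105 over all probe sets).

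The largest changes of Abcb1a and of Abcb1b were in part in different lymphomas. Lymphoma 403 had an Abcb1a change of 1.43 and an Abcb1b change of -0.044, and 5560 and 6054 had Abcb1b changes of 0.097 and 0.23. In lymphoma 9583 the change was -0.33 for Abcb1a and 2.25 for Abcb1b. Lymphomas 1467 and 3769 were in the upper range for both genes. The change of Abcb1b exceeded that of Abcb1a by 0.44 ± 0.34 (SE, n = 14), positive in 8 of 14, with an exact sign-flip p of 0.207. That test, of whether the mean difference is 0, did not pass, and the 14 differences had an SD of 1.26. The untreated means were 3.33 for Abcb1a and 8.47 for Abcb1b, and fold changes near the low end of the scale are compressed. The paralogs are close in sequence, and whether a probe set of one also reads the other was not tested.

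**Figure D2:**
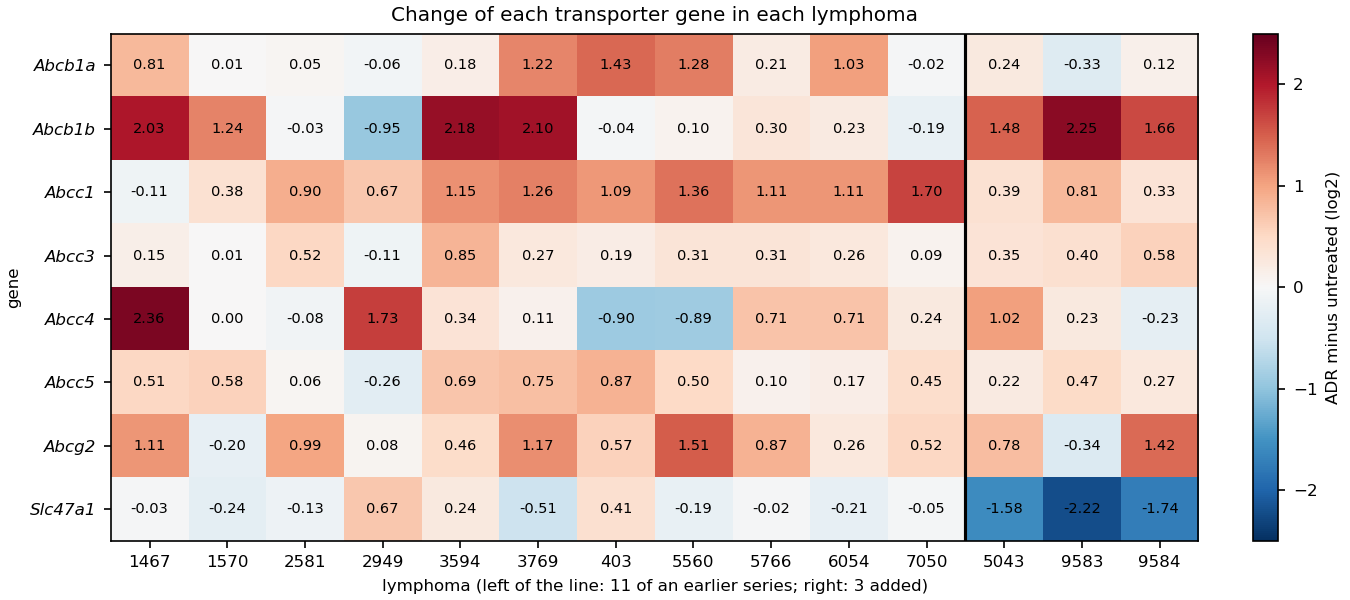
ADR minus untreated change (log2) printed and coloured (red higher, blue lower) for each transporter gene, in rows, and each of the 14 lymphomas, in columns, with a line between the 11 earlier and the 3 added ones. Abcb1b is dark red in 7 lymphomas (1.24 to 2.25) and pale or blue in the other 7 (up to 0.30), and Slc47a1 is dark blue in the 3 added ones (-2.22 to -1.58).

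Among the multidrug resistance-associated proteins, Abcc1 rose the most and in nearly every lymphoma. Abcc1 (1452233_at) exports glutathione conjugates, leukotriene C4 and anthracyclines. Its untreated values lay between 8.63 and 9.81 (median 9.38) and its ADR values between 9.03 and 11.17 (median 10.26), with 10 of 14 ADR arrays above every untreated array. The change was 0.87 ± 0.12 (SE; limma adjusted p = 7.3e-05), higher in 13 of 14 lymphomas, with an exact sign-flip p of 0.000244. Lymphoma 7050 had the largest change (1.70) and 1467 alone was not higher (-0.11). A second probe set (1421378_s_at) rose by 0.64 ± 0.19 (SE; adjusted p = 0.0191). At no fibroblast change Abcc1 did not pass, at 0.39 ± 0.16 (SE; limma adjusted p = 0.146).

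Abcc5 (1418042_a_at), which exports cyclic nucleotides and nucleotide analogues, rose by less and as regularly. Its untreated values ran from 7.04 to 7.93 (median 7.50) and its ADR values from 7.33 to 8.43 (median 7.79), and the groups overlapped. The change was 0.38 ± 0.082 (SE; limma adjusted p = 0.00207), higher in 13 of 14 lymphomas. Lymphoma 2949 alone was lower, at -0.26, and 403 had the largest change, at 0.87. At no fibroblast change Abcc5 did not pass (0.18 ± 0.13 SE, limma adjusted p = 0.479). The array carries 10 probe sets for Abcc5, of which 5 were higher and 5 did not pass, with changes from 0.059 to 0.62. The 5 that were higher had untreated means of 5.87 to 7.455. Those that did not pass had means of 3.42 to 4.15, apart from 1435683_a_at at 7.44. Their 14 changes did not run in parallel: r with the brightest probe set went from -0.73 (1430882_at, untreated mean 3.60) to 0.85 (1438056_x_at, untreated mean 6.38). Brighter probe sets differed too, with an r of -0.21 for 1435683_a_at, whose change was 0.097. It was -0.18 for 1435685_x_at (untreated mean 6.03), which was called higher, and positive for the other probe sets called higher.

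Abcc3 (1428988_at), a transporter of bile acids and glucuronides, was low on the scale in every array. It went from 3.69 to 4.14 in untreated arrays (median 3.99) and from 4.01 to 4.73 in ADR arrays (median 4.11), with 6 of 14 ADR arrays above the untreated range. The change was 0.30 ± 0.068 (SE; limma adjusted p = 0.00335), higher in 13 of 14 lymphomas. The largest changes were in 3594 (0.85) and 9584 (0.58), and 2949 was again the only one that was lower (-0.11). In the fit at no fibroblast change it did not pass (0.20 ± 0.12 SE, limma adjusted p = 0.356). The array has 1 probe set named for Abcc3.

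Abcc4 (1443870_at), which exports cyclic nucleotides, prostaglandins and nucleotide analogues, did not pass the test, and its values lay closer together after ADR. Untreated values ran from 5.86 to 8.999 (median 8.27) and ADR values from 7.96 to 8.96 (median 8.43), so that every ADR array lay within the untreated range. The SD was 0.90 over the untreated and 0.32 over the ADR arrays. That ratio of 0.36 was chosen for mention after its value was seen, and 0.385% of all genes had a ratio as small. Lymphomas 1467 and 2949 were lowest untreated, at 5.86 and 6.66, and were at 8.22 and 8.38 after ADR. Lymphomas 5560 and 403 were highest, at 8.999 and 8.963, and were at 8.11 and 8.06. The mean change was 0.38 ± 0.22 (SE; limma adjusted p = 0.228), higher in 10 of 14, with an exact sign-flip p of 0.138. Without lymphomas 403 and 5560 Abcc4 passed, at 0.59 ± 0.20 (SE; adjusted p = 0.0445), and without 1467 its change was 0.23 (adjusted p = 0.404). At no fibroblast change it was called higher, at 1.37 ± 0.25 (SE; limma adjusted p = 0.00368). Lymphoma 1467, the only one near no fibroblast change (-0.046), had the largest Abcc4 change, 2.36.

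Abcg2 (1422906_at), a transporter that works as a dimer and carries anthracyclines among many substrates, rose from a low level. Its untreated values ran from 3.47 to 6.13 (median 4.05) and its ADR values from 3.80 to 6.70 (median 4.80), with 2 ADR arrays outside the untreated range. Lymphoma 403 was highest in both, at 6.13 and 6.70. The change was 0.66 ± 0.14 (SE; limma adjusted p = 0.00235), higher in 12 of 14, with an exact sign-flip p of 0.00171. The largest changes were in 5560 (1.51) and 9584 (1.42), and lymphomas 1570 and 9583 were lower, at -0.20 and -0.34. Without the lymphoma as a block the adjusted p was 0.0983, and at no fibroblast change Abcg2 was at 0.43 ± 0.24 (SE; limma adjusted p = 0.319).

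Slc47a1 (1418395_at) did not pass over all lymphomas, yet it was the only one of 18193 genes that passed the test of its change in the 3 added against the 11 earlier lymphomas after adjustment. In the untreated arrays of the 3 added lymphomas it stood at 5.04 (5043), 6.29 (9583) and 4.86 (9584), above all 11 earlier ones, which ran from 2.87 to 4.21. After ADR the 3 were at 3.46, 4.06 and 3.12, within the range of the ADR arrays of the earlier ones. The change in the 3 added lymphomas was -1.85 ± 0.34 (SD, n = 3), from -2.22 to -1.58. In the 11 earlier lymphomas it was -0.0072 ± 0.33 (SD, n = 11), from -0.51 to 0.67. The difference was -1.84 ± 0.21 (SE), with a limma p of 3.2e-07 and an adjusted p of 0.00589, and 0.0055% of all genes were called. Changes of the 3 and the 11 did not overlap for 0.583% of genes, and untreated levels did not overlap for 0.83%. The untreated values of all 11 lay under the array medians (4.71 to 4.80), near the low end of the scale. Whether that limited their fall was not tested.

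**Figure D3:**
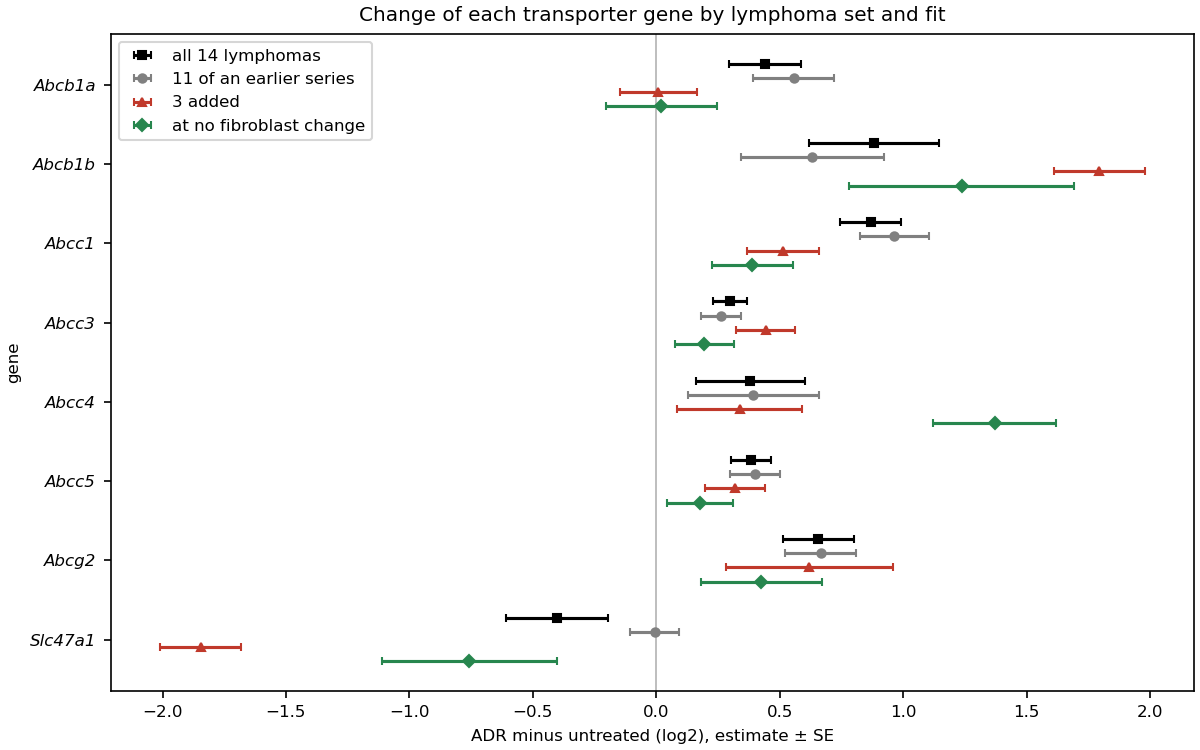
ADR minus untreated change with its standard error for each transporter gene in the fit over 14 lymphomas and in the alternative fits named on the plot. The values of Abcc1 stay above 0 in each, Abcb1a comes to 0.021 and Abcc4 to 1.37 at no fibroblast change, and Slc47a1 is -0.0072 in the 11 earlier and -1.85 in the 3 added lymphomas.

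Over all 14 lymphomas Slc47a1 changed by -0.40 ± 0.21 (SE; limma adjusted p = 0.172) and was higher in 3 of 14. Without lymphoma 9583 the change was -0.26 (adjusted p = 0.314). Within the 3 added lymphomas alone the adjusted p was 0.0826, from 3 pairs. None of the other 7 transporters passed that test of the 3 against the 11 lymphomas (limma adjusted p of at least 0.864). Whether the marked lymphomas were cultured or hybridised apart from the others is not given in the labels, and lymphoma and series cannot be told apart for the 3 added ones. The array has 1 probe set named for Slc47a1.

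**Figure D4:**
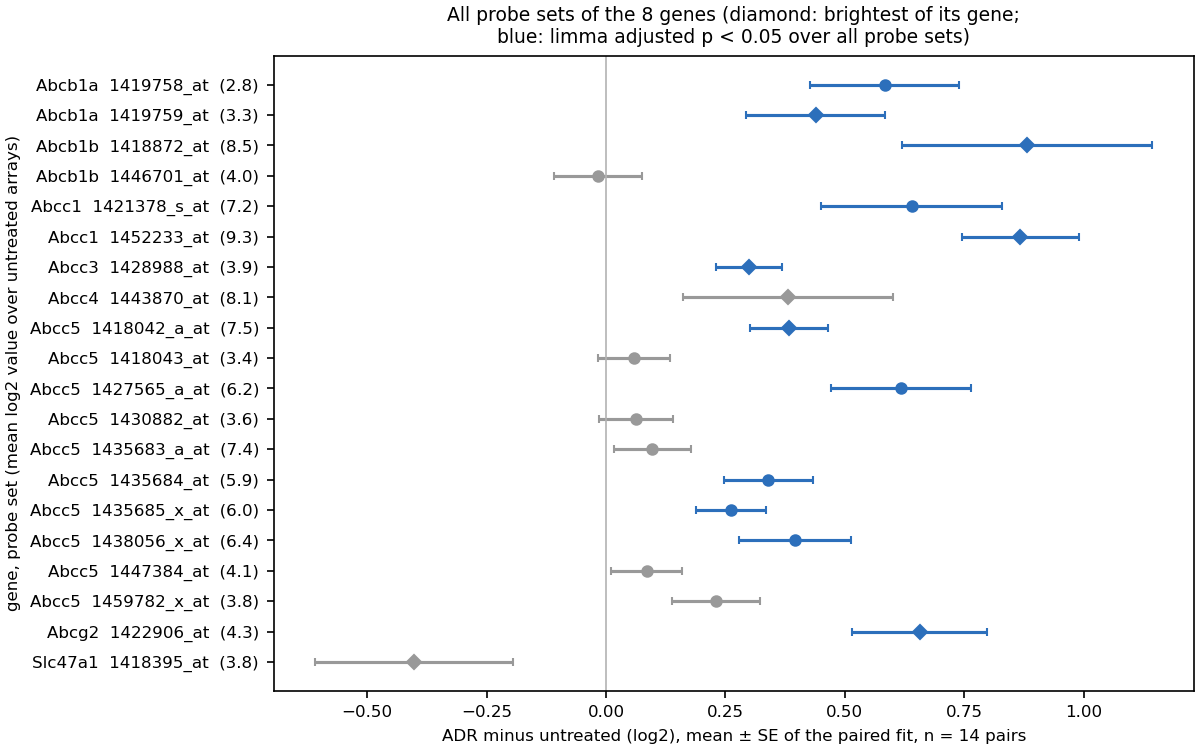
ADR minus untreated change (log2, with its standard error) of all 20 probe sets of the 8 transporter genes, with the mean untreated log2 value in brackets, diamonds for the brightest of each gene and blue for limma adjusted p-values under 0.05 over all probe sets. Of these, 12 were higher and 8 did not pass, and the brightest probe sets of Abcc4 and Slc47a1 are among those 8.

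Several transporters were low on the array. Array medians over all probe sets lay between 4.71 and 4.80, and the untreated means of Abcb1a (3.33), Abcc3 (3.93), Abcg2 (4.34) and Slc47a1 (3.81) were under them. The deposited table holds no detection call, so it does not say whether these 4 genes were above background in a given array. For scale, 22 genes known from tissues that these cultures do not hold had untreated means of 2.64 to 6.41, and none of them was called. Fold changes near the low end of the scale are compressed.

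The transporter changes were set against the change of the fibroblast list in the same lymphoma. The changes of Abcb1a, Abcb1b and Slc47a1 fell into separate ranges, so no r over the 14 lymphomas is given for their changes. Those of Abcc4 also had a gap, between 1.02 and 1.725, with 2 lymphomas (1467 and 2949) above it. These 2 had the lowest fibroblast changes (-0.046 and 0.45), and no r for Abcc4 without them was computed, which limits its r below. Of 8 relations, those of Abcc1 and Abcc4 passed after Benjamini-Hochberg adjustment. The change of Abcc1 was larger where the fibroblast list rose more (Pearson r = 0.70, permutation p = 0.00538, adjusted 0.0215; Spearman rho = 0.73, permutation p = 0.00441, adjusted 0.0342). Without lymphomas 403 and 5560, farthest from the median, r was 0.75 (permutation p = 0.00477, adjusted 0.0382). Within the 11 earlier lymphomas it was 0.65 and did not pass (permutation p = 0.0287, adjusted 0.115). The change of Abcc4 ran the other way (r = -0.78, permutation p = 0.00103, adjusted 0.00824; rho = -0.68, permutation p = 0.00856, adjusted 0.0342). Without 403 and 5560 its r was -0.63 and did not pass (permutation p = 0.0229, adjusted 0.0916), and within the 11 it was -0.87 (permutation p = 5.2e-04, adjusted 0.00416). Abcc3, Abcc5 and Abcg2 had an r of 0.30, 0.48 and 0.29 and did not pass. With the macrophage list none of 8 relations passed, and r lay between -0.085 and 0.54 for the other 5 genes (smallest adjusted permutation p = 0.387).

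**Figure D5:**
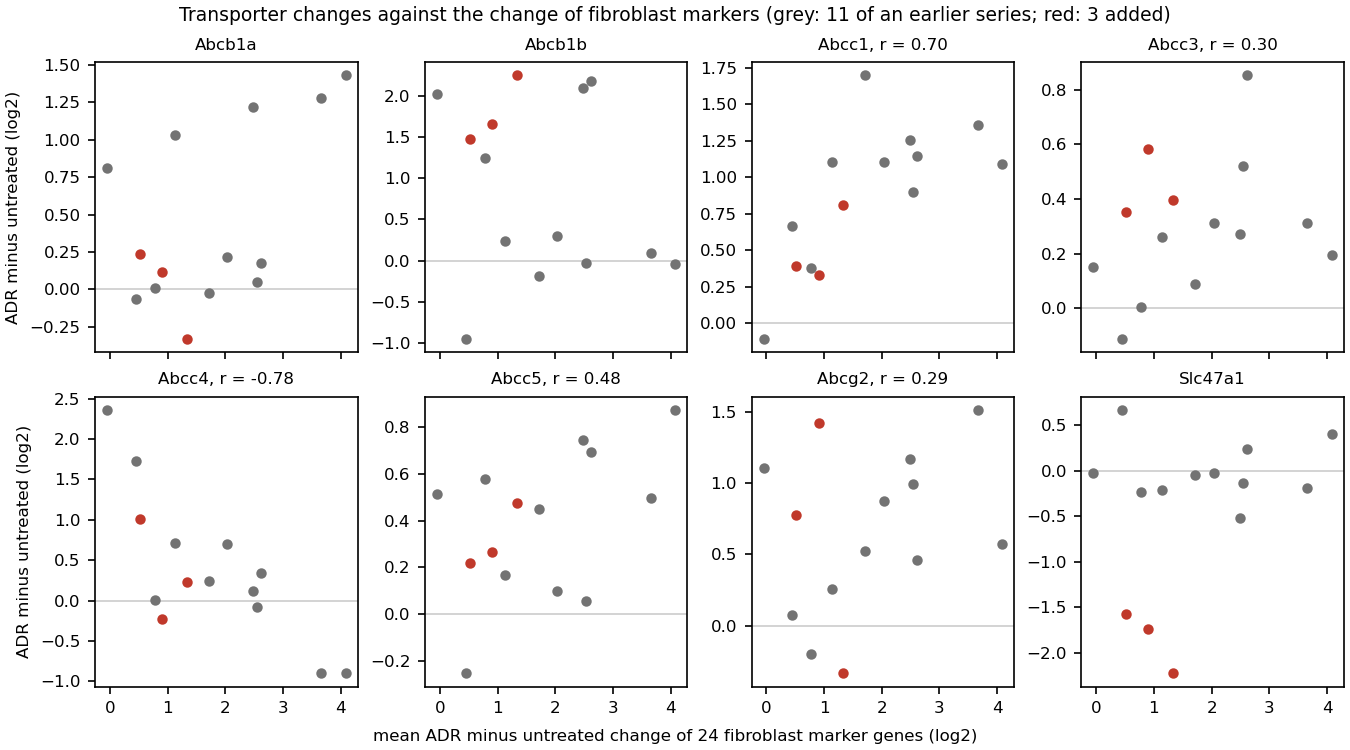
Change of each transporter gene (log2, vertical axis) against the change of the mean of 24 fibroblast markers (log2, horizontal axis) in the 14 lymphomas, with r where it is given in the text. Abcc1 rises with the fibroblast list (r = 0.70) and Abcc4 falls with it (r = -0.78), with lymphomas 1467 and 2949 set apart at Abcc4 changes of 2.36 and 1.725.

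Levels before treatment were set against the markers and against the response to the drug. Among 16 relations of untreated transporter levels with untreated marker lists, none passed by Pearson's r (smallest adjusted permutation p = 0.219). By Spearman's rho Abcc1 passed with the fibroblast list (r = 0.65, permutation p = 0.0137, adjusted 0.219; rho = 0.78, permutation p = 0.00137, adjusted 0.0219). That r was 0.71 after leaving out 6054 and 5766, and 0.69 over the 11 earlier ones. The response was read from 36 genes of mitosis (G2/M), of which 35 were lower after ADR with a median change of -1.74, and from 28 targets of p53, of which 18 were higher and 1 lower. None of 16 relations of untreated transporter levels with the change of these lists passed (smallest adjusted permutation p = 0.142 by Pearson's r). That smallest value was for Abcc1 and the p53 list (r = -0.67, permutation p = 0.00886; rho = -0.73, adjusted permutation p = 0.0654). Its r was -0.48 without lymphomas 2581 and 1570, and -0.70 within the 11 earlier ones. For Abcb1b and the G2/M list r was -0.37 (permutation p = 0.195, adjusted 0.445), and -0.74 without lymphomas 3594 and 3769, with an adjusted p of 0.0682. None of the 28 pairs of transporter changes passed (smallest adjusted permutation p = 0.414), and over the 10 pairs without Abcb1a, Abcb1b and Slc47a1 r ran from -0.53 to 0.31.

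The other lists of transport and resistance genes are counted against the 15.3% of all genes called higher and the 13.4% called lower. Of 20 further ABC genes of subfamilies B, C and G, 1 was higher, 3 were lower and 16 did not pass, with a median change of -0.040. The 1 higher gene was Abcg1, a cholesterol exporter (0.54 ± 0.19 SE, limma adjusted p = 0.0443). Its call was lost without the block (adjusted p = 0.131), at no fibroblast change (0.14, adjusted p = 0.853), without 403 and 5560 together (adjusted p = 0.0543), and without any 1 of 1570, 2581, 2949, 3594, 3769, 5560, 5766, 6054 and 7050. The 3 lower genes were Abcb6, a mitochondrial transporter (-0.43 ± 0.12 SE, limma adjusted p = 0.0112), Abcb4, the phospholipid flippase next to Abcb1b on the chromosome (-0.34 ± 0.11 SE, adjusted p = 0.0344), and Abcb9 (-0.14 ± 0.050 SE, adjusted p = 0.0478), which was named after its value was seen. Abcb6 lost its call without the block (adjusted p = 0.0553) and was at 0.041 at no fibroblast change. Abcb4 lost its call without the block (adjusted p = 0.0898), in the 11 earlier lymphomas (-0.26, adjusted p = 0.094), without 403 and 5560 together (adjusted p = 0.0794), at no fibroblast change (adjusted p = 0.229), and without any 1 of 2949, 3594, 403, 5043, 5560, 5766 and 9583.

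Of 16 genes of subfamilies A and D, 3 were higher and none was lower. Abca1, the cholesterol exporter that loads apolipoprotein A-I, rose by 1.82 ± 0.32 (SE; limma adjusted p = 5.1e-04), higher in 13 of 14 lymphomas, and did not pass at no fibroblast change (0.82, adjusted p = 0.343). Of 26 carriers for organic ions and nucleosides 4 were higher and 1 lower. Slc29a1, the nucleoside carrier ENT1, was lower in 14 of 14 lymphomas (-0.62 ± 0.089 SE, adjusted p = 8.3e-05). It kept its call at no fibroblast change (-0.71 ± 0.16 SE, limma adjusted p = 0.00992). Slc22a16, a carrier known to take up doxorubicin, did not pass (0.049 ± 0.076 SE, adjusted p = 0.697).

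In the lists of anthracycline reduction, glutathione and other resistance genes, more were called higher than lower, and many did not pass. Of 21 genes listed for anthracycline reduction 10 were higher and 1 lower, with Xdh (xanthine dehydrogenase) at 1.98 ± 0.37 (SE; limma adjusted p = 8.5e-04). The 10 also count Tbxas1, thromboxane synthase (0.58 ± 0.18 SE, limma adjusted p = 0.0246). At no fibroblast change Xdh was at 0.076 (adjusted p = 0.929). Akr1b8 and Cbr2 rose by 1.66 ± 0.33 and 1.61 ± 0.35 (SE), and were at -0.065 and -0.30 at no fibroblast change. The carbonyl reductases Cbr1 and Cbr3, which turn doxorubicin into its alcohol, did not pass, at 0.059 and 0.047. Of 23 genes of glutathione synthesis and conjugation 8 were higher and 2 lower, with a median change of 0.27. Mgst1, a membrane-bound glutathione transferase, rose by 1.23 ± 0.25 (SE; limma adjusted p = 0.00163). Its call was lost without the block (adjusted p = 0.116) and at no fibroblast change (0.49, adjusted p = 0.508). Of 16 resistance genes outside the ABC family 6 were higher and 4 lower. Top2a, the topoisomerase that doxorubicin poisons, fell by 1.94 ± 0.23 (adjusted p = 1.6e-05), and Mvp, the major vault protein, rose by 0.81 ± 0.082 in 14 of 14 lymphomas (adjusted p = 6.2e-06).

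Of 32 known regulators of efflux pump genes 9 were higher and 6 lower, with a median change of 0.020. Among the 6, Nfyb fell by 0.75 ± 0.081 (SE; limma adjusted p = 9.6e-06), lower in 14 of 14 lymphomas. The others changed by -0.71 (Myc), -0.41 (Hdac2), -0.37 (Nfya), -0.27 (Ybx1) and -0.19 (Sp1). These 6 were named after their values were seen. Cebpb, a transcription factor of inflammation and differentiation, rose by 1.37 ± 0.13 (SE; limma adjusted p = 4.7e-06), higher in 14 of 14 lymphomas. Nfe2l2, which encodes the oxidative stress factor NRF2, rose by 0.85 ± 0.13 (adjusted p = 1.8e-04) in 14 of 14, and was picked for mention after its value was seen. Fos, a subunit of AP-1, rose by 1.495 ± 0.46 (adjusted p = 0.0225) and Ahr, the aryl hydrocarbon receptor, by 1.28 ± 0.38 (adjusted p = 0.0183). In the fit at no fibroblast change Fos was at -0.12 and Ahr at -0.60. Both also lost their calls without the block (adjusted p = 0.058 and 0.0898) and without lymphomas 403 and 5560 (adjusted p = 0.0554 and 0.0638), and Fos lost its call in the 11 earlier lymphomas (adjusted p = 0.052) and without 3769 (adjusted p = 0.0505).

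The genes most like each transporter were ranked by Pearson's r over the 14 lymphomas among 9096 genes above the median level, as a description. Abcb1a, Abcb1b and Slc47a1 are left out of the ranking by changes. By their changes the nearest to Abcc1 were Gbe1 (0.94), Sra1 (0.93) and Reep5 (0.92), and to Abcc4 Tmem185b (0.95), Ak3 (0.94) and Uck2 (0.93). Abcc5 was nearest to Dusp10 (0.87), Abcc3 to Rnf144a (0.83) and Abcg2 to Cltb (0.77). By untreated level Abcb1b was nearest to Cux2, Itga3 and Rps20, each with an r of 0.93, and Abcc4 to Lrrc59 (0.95), Imp4 (0.94) and Rusf1 (0.94). Abcc1 was nearest to Arhgap12 (0.89) and Abcb1a to Ofd1 (0.87). Abcc5 was nearest to Hic2 (0.83), Abcg2 to Bap1 (0.83) and Abcc3 to Slc39a3 (0.78).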

How the data were processed

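The deposited values are log2 expression values of 45101 probe sets on 28 arrays. Per the submitters' processing notes they were made with RMA and Partek 6.5; the genome build is not given in the sources used here. Annotation dated 2016 gave 1 gene to 34945 probe sets, several to 932 and none to 9160, and 64 were controls; only the first kind was used. The RefSeq table held the Entrez identifier of 34741 of them. For 9010 genes with more than 1 probe set the brightest by mean over the 28 arrays was taken, which left 18193 genes.

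The paired changes were fitted in R 4.3.3 by limma 3.58.1 (lmFit, then eBayes, 2-sided), lymphoma being a block. Benjamini-Hochberg adjustment covered all genes, and an adjusted p under 0.05 counted as a call. The pairing comes from the labels; deviations from the group means correlated at 0.27 to 0.58 (median 0.46) within lymphomas and at a median of -0.071 between them. Sign-flip tests enumerated 16384 patterns and correlations used 100000 permutations. On simulated data with 200 changed genes the paired fit recovered 71.6%, 94.0% and 100% of changes of 0.5, 1 and 2, with 10 false among 187 calls. The simulated noise was independent between genes and few genes changed, while 28.7% of the measured genes were called. These rates may not carry over to the measured data. The number of arrays limits the precision.

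The 8 genes, the lists, the tests and the alternatives were chosen with earlier results of these data known. Named genes were the 8 transporters, up to 3 called genes of each list by size of change, and the 3 most alike per transporter. Some were left out. Pdgfrb, Abcb9, Slc22a16, Cbr1, Cbr3, Tbxas1, Nfe2l2, the lower regulators of efflux pump genes and the B cell markers were named after their values were seen. Alternatives were no block or a random block, other probe sets, a level filter, centring, quantile normalization, a variance trend, the 11 or 3 lymphomas alone, leaving out lymphomas, and the fibroblast covariate. Plots and permutations used Python 3.11.15 and matplotlib 3.10.9.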

Additional observations from a re-analysis of the deposited data

Results flagged for a closer look

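Slc47a1, the MATE1 transporter, changed differently in the 3 added and the 11 earlier lymphomas, by -1.84 on the log2 scale, and the test of that difference over all genes is what singled it out. The 3 added lymphomas started above all the others and ended among them. Untreated, the 11 earlier ones were near the low end of the scale, and whether that limited their fall was not tested.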

How the results depend on the processing

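Of 216 recomputed changes of the 8 transporters, 187 kept their direction and side of the threshold, 26 no longer passed, 2 newly passed and 1 reversed. Random blocking, centring, quantile normalization, a variance trend and the largest-variance probe set left 6 transporters higher each. Without the lymphoma as a block, that is without the pairing, 1933 genes were higher and 1723 lower, and 4 transporters were higher; Abcb1b (0.88, adjusted p = 0.144) and Abcg2 (0.66, adjusted p = 0.0983) no longer passed. With all probe sets tested, 4535 probe sets were higher and 4807 lower. Only 4 transporters lie above the median level, and 3 of these were higher. In the 11 earlier lymphomas Abcb1b (0.63) no longer passed. In the 3 added lymphomas, with 3 pairs, 1 gene was higher and 0 lower, and 0 transporters; at an unchanged threshold Abcb1a (0.0080), Abcb1b (1.79), Abcc1 (0.51), Abcc3 (0.44), Abcc5 (0.32) and Abcg2 (0.62) did not pass, and Abcg1 reversed (-0.089). Without lymphomas 403 and 5560 Abcb1a no longer passed (0.29) and Abcc4 did (0.59). Leaving out 1 lymphoma at a time gave 0.36 to 0.50 for Abcb1a and changed no other transporter's call; without 1467 Abcc4 was at 0.23 and without 9583 Slc47a1 was at -0.26.

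In the covariate fit, at no fibroblast change, 1055 genes rose and 951 fell, and 1 transporter was higher: Abcc4 (1.37) passed, while Abcb1a (0.021), Abcb1b (1.24), Abcc1 (0.39), Abcc3 (0.20), Abcc5 (0.18) and Abcg2 (0.43) did not. Genes of the other lists that reversed there were Abcb6 (0.041), Slco2a1 (-0.60), Slc22a23 (-0.32), Akr1b8 (-0.065), Cbr2 (-0.30), Gsta4 (-0.63), Gstm2 (-0.52), Fos (-0.12), Ahr (-0.60) and Atp7a (-0.016). Other probe sets that did not pass were those of Abcb1b at -0.016, which reversed, and of Abcc5 at 0.059, 0.063, 0.097, 0.086 and 0.23. That of Abcb1b was low, with an untreated mean of 4.04. For Abcc5 the difference between the 3 and the 11 lymphomas went from -0.083 to 0.0091 with the largest-variance probe set. Of the relations with the fibroblast change, 2 of 8 passed; 1 passed without 403 and 5560 (Abcc1) and 1 within the 11 lymphomas (Abcc4). The causes were not tested. Values near the low end of the scale limit what can be said of Abcb1a, Abcc3, Abcg2 and Slc47a1.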
